A study of Mus musculus with 10 samples.

Results

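Aminoacyl-tRNA synthetases are the enzymes that join each amino acid to its transfer RNA, so every codon that a ribosome reads depends on them. Mammalian cells run 2 sets, since the cytosol and the mitochondria translate separately, and all of these enzymes are encoded in the nucleus. By convention a name ending in 2 marks the mitochondrial enzyme (Aars2) beside its cytosolic counterpart (Aars). A group of 8 cytosolic enzymes sits with scaffold proteins in a multisynthetase complex. Several cytosolic synthetase genes are known targets of ATF4, a transcription factor made when amino acids run short. Here 36 synthetase genes were followed in newly made RNA, 20 of them cytosolic and 16 mitochondrial. They were taken by gene symbol from the 24386 genes counted (the amino acid letter followed by ars or ars2, plus Eprs, Farsa and Farsb), leaving out chromosomes X, Y and 16. Yars2 has such a name but lies on chromosome 16, whose median B6 share was 0.355 against 0.517 to 0.537 on the other autosomes. Gars and Kars carry names of the cytosolic set although each is known to supply both compartments.

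The samples came from TX1072, a female mouse embryonic stem cell line from a cross of Mus musculus castaneus (Cast) with C57BL/6 (B6). In TX1072 a promoter that responds to doxycycline (DOX) stands before the endogenous Xist gene of the B6 X chromosome, so that DOX starts X chromosome inactivation without differentiation. All samples were wild-type TX1072 grown in serum with LIF and 2 kinase inhibitors. They were collected at 0, 4, 8, 12 and 24 h of DOX (1 µg/ml), in duplicate, giving 10 samples. Newly made RNA was marked with 0.5 mM 4-thiouridine for 5 min and sequenced (TT-seq). This is 1 cell line, no sample received DOX without an inducible Xist, and time in culture rose with time in DOX, so the effects of the drug, of Xist and of culture time cannot be told apart.

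Each sample held 18809046 to 22274929 counted read pairs, of which the 36 genes took 0.392 to 0.414%. Xist, the induced gene, was at 1.41 and 1.53 CPM (counts scaled to the size of the library) at 0 h and at 329 to 664 CPM in the samples with DOX. Of 7 stem cell marker genes, 6 were well covered, and together the 7 reached 2587 to 2845 CPM in every sample, with Nanog at 271 to 328 CPM and Pou5f1 at 102 to 139 CPM. Sox2 was listed at 0 in all 10 samples. The 11 markers of other cell types summed to 12.4 to 20.7 CPM, and Sox1 was listed at 0 in all samples. A listed 0, as for Sox2 and Sox1, is not read here as absence of transcription. The share of read pairs with an assigned allele was lower in 0 h replicate 1 (49.2%) than in any of the other 9 (51.7 to 52.8%). The counts of called members are therefore also given without 0 h replicate 1. So are the 24 h log2 changes of Mars2, Aars2, Vars, Sars2, Wars, Hars and Hars2. Those of other single genes are given from all 10 samples. In bulk RNA, fewer cells making a transcript and less RNA made per cell cannot be told apart.

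Promoter sequence was examined first, since ATF4 is known to act on some of these genes through a short element, the C/EBP-ATF response element. RefSeq windows of 250 bases before to 50 bases after the start site (build GRCm38.p6) were at hand for 26 of the 36 genes. The element was searched as TGATGNAA on both strands. It was found in 5 of the 26 windows (19.2%), against 239 of 11053 windows of tested autosomal genes (2.16%). All 5 genes encode cytosolic enzymes. They are Aars (alanine), Gars (glycine), Iars (isoleucine), Tars (threonine) and Yars (tyrosine). No window was at hand for the cytosolic genes Cars, Hars, Lars, Nars, Rars, Vars and Wars, so these were not searched. The stretches around each match are shown 5′ to 3′ on the strand of the gene because they are the feature that these 5 promoters share. Capitals mark the match, which for all but Yars reads as the reverse complement of the searched letters.
Aars, chr8:111033714-111033753, plus strand: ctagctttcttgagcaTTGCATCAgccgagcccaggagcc
Aars, chr8:111033835-111033874, plus strand: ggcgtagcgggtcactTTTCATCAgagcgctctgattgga
Gars, chr6:55037955-55037994, plus strand: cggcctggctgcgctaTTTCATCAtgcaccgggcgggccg
Iars, chr13:49682121-49682160, plus strand: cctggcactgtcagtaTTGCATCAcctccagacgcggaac
Tars, chr15:11399650-11399689, minus strand: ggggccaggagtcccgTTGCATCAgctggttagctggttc
Yars, chr4:129189890-129189929, plus strand: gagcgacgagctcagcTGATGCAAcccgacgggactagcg
The RefSeq start used for the Yars window lies 108 bases downstream of the start in the deposited table, and for the other 4 genes the starts coincide. Aars was the only one of the 5 with 2 matches.

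A second short motif, the E-box CACGTG that MYC and related factors can bind, was found in 5 of the 26 windows (19.2%), against 10.1% of the 11053 windows of tested autosomal genes. These 5 genes were Aars, Ears2, Farsb, Iars and Tars, so that Aars, Iars and Tars held both motifs. A pair of E-box stretches, from a mitochondrial and a cytosolic enzyme without the first element, are given for comparison, with the E-box in capitals.
Ears2, chr7:122067044-122067081, minus strand: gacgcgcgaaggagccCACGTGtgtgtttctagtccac
Farsb, chr1:78488915-78488952, minus strand: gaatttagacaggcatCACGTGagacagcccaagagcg
Neither stretch holds TGATGNAA, as both genes were chosen for lacking it. The median GC content of the 26 windows was 57.4%, against 61.0% over the tested autosomal windows. A match is a string of letters in this window and was not tested as a site of binding.

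The nascent level of the genes was compared per length, as CPM per kb of gene span with introns included, because newly made RNA covers introns. At 0 h the cytosolic enzymes had a median of 4.18 CPM per kb (range 1.91 to 8.55), and the mitochondrial enzymes a median of 1.16 (range 0.699 to 5.22). The median over 14019 tested autosomal genes was 1.00 CPM per kb. All 20 cytosolic genes and 12 of the 16 mitochondrial genes lay above that autosomal median. At that time 14 of the mitochondrial genes lay below the lowest cytosolic gene, and 6 cytosolic genes lay above the highest mitochondrial gene. The 8 genes of the multisynthetase complex (Eprs, Mars, Qars, Rars, Kars, Iars, Lars and Dars) had a median of 4.27 CPM per kb at 0 h, next to 4.18 for the other 12 cytosolic genes.

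**Figure D1:**
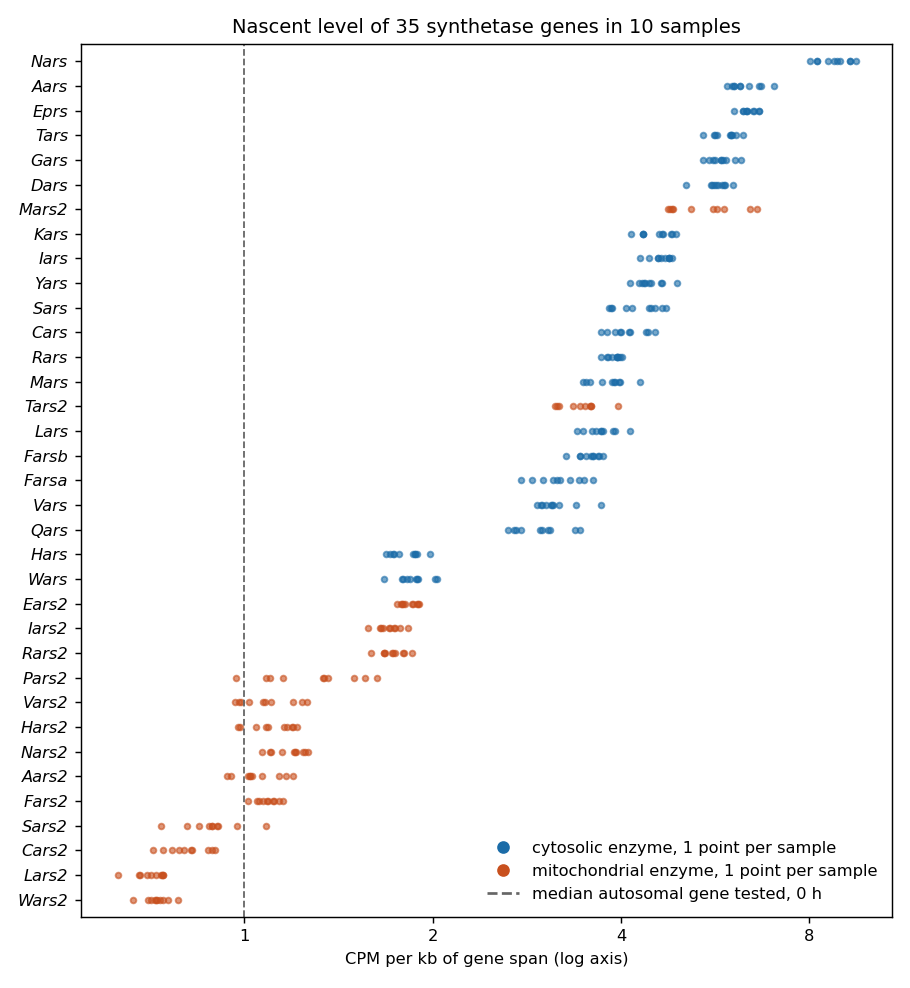
Nascent level of 35 of the genes in CPM per kb of gene span on a log axis, with 1 point for each of the 10 samples, blue for cytosolic and orange for mitochondrial enzymes. The dashed line is the median tested autosomal gene at 0 h (1.00 CPM per kb). Mars2 and Tars2 lie among the cytosolic genes in every sample, and Ears2 (1.76 to 1.90) lies within the range of Wars and Hars.

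The highest cytosolic levels per kb were those of Nars, which charges asparagine, Aars, and Eprs, a fused enzyme that charges both glutamate and proline. Nars ranged from 8.02 to 9.48 CPM per kb over the 10 samples. Aars ranged from 5.92 to 7.02 and Eprs from 6.06 to 6.64, so Nars stood above both in every sample while Aars and Eprs overlapped. The lowest cytosolic levels were those of Wars (tryptophan, 1.68 to 2.03 CPM per kb), Hars (histidine, 1.69 to 1.98) and Qars (glutamine, 2.64 to 3.44). Wars and Hars overlapped, and Qars stood above both in every sample.

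Among the mitochondrial enzymes, Mars2 (methionine) was highest with 4.75 to 6.60 CPM per kb, followed by Tars2 (threonine) with 3.14 to 3.96 and Ears2 (glutamate) with 1.76 to 1.90. These 3 ranges did not overlap. Mars2 also has the shortest deposited span of the 36 genes, 2.88 kb on chromosome 1 (55237177 to 55240058, plus strand). GENCODE M21 places its end at 55248470, so its level per kb holds for the deposited span only. The lowest levels were those of Wars2 (0.665 to 0.784 CPM per kb), Lars2 (leucine, 0.628 to 0.743) and Cars2 (cysteine, 0.716 to 0.898), whose ranges overlapped. Fars2, which charges phenylalanine in mitochondria, spans 420 kb on chromosome 13 (36117643 to 36537595, plus strand). Its total of 426 to 485 CPM exceeded that of every other member, while per kb it lay at 1.01 to 1.154, close to the autosomal median.

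Set side by side by amino acid, cytosolic and mitochondrial genes formed 17 pairs, with Eprs paired with both Ears2 and Pars2, and Fars2 with both Farsa and Farsb. The cytosolic gene was higher per kb in every sample in 16 of the 17 pairs. The mean ratio over the 10 samples was largest for Nars over Nars2, at 7.43 (range 6.62 to 8.38). It was 6.00 for Aars over Aars2 and 5.25 for Lars over Lars2. At the low end it was 1.71 for Tars over Tars2 (range 1.54 to 1.90) and 1.63 for Hars over Hars2 (range 1.45 to 1.81). The exception was methionine, where Mars stood at 0.704 of Mars2 per kb of deposited span (range 0.586 to 0.890), below it in every sample.

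The study's time course asks what changes once Xist is induced, and the first comparison was of total nascent counts at each time with 0 h. No synthetase gene passed the test at any time. With edgeR's quasi-likelihood test over 14525 genes and a threshold of adjusted p 0.05, 0 of 36 members were called at 4 h, where 0.0138% of all genes tested were called. At 8 h 0 of 36 were called against 0.193% of all genes. At 12 h 0 of 36 were called against 0.95%, and at 24 h 0 of 36 against 1.85%. A test for any difference among the 5 times called 0 of 36 members and 1.25% of all genes. For these 4 times in order, the lowest edgeR adjusted p of any member was 1.00, 0.914, 0.257 and 0.575. At an unadjusted p under 0.05 there were 1, 2, 3 and 0 members at 4, 8, 12 and 24 h (2.78, 5.56, 8.33 and 0%). Of all genes tested, 304, 589, 1673 and 1495 were under that threshold (2.09, 4.06, 11.5 and 10.3%). DESeq2 likewise called 0 members at each of the 4 times, and limma-voom, DESeq2's size factors, counts without a filter and the fit without 0 h replicate 1 did so too. With 2 samples against 2, an exact permutation test of a single gene cannot give a p below 0.333, so no such test was run.

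The intervals, each for a single gene and time in the fit without a block, put a limit on what could have been missed. They do not hold jointly over the 36 genes. The members' 95% intervals reached a median of 0.18 to either side of the estimate on the log2 scale at each time. At 24 h all 36 intervals lay between -0.44 and 0.48, and at 12 h they lay between -0.48 and 0.39. At 4 and 8 h 34 of the 36 intervals lay within 0.5 of 0, and at every time all 36 lay within 1 of 0. The ratio of the highest to the lowest sample for a member had a median of 1.19 over the 36 genes, from 1.08 to 1.68. These values are relative to the library as a whole, as no spike-in scaling was applied to the deposited counts.

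**Figure D2:**
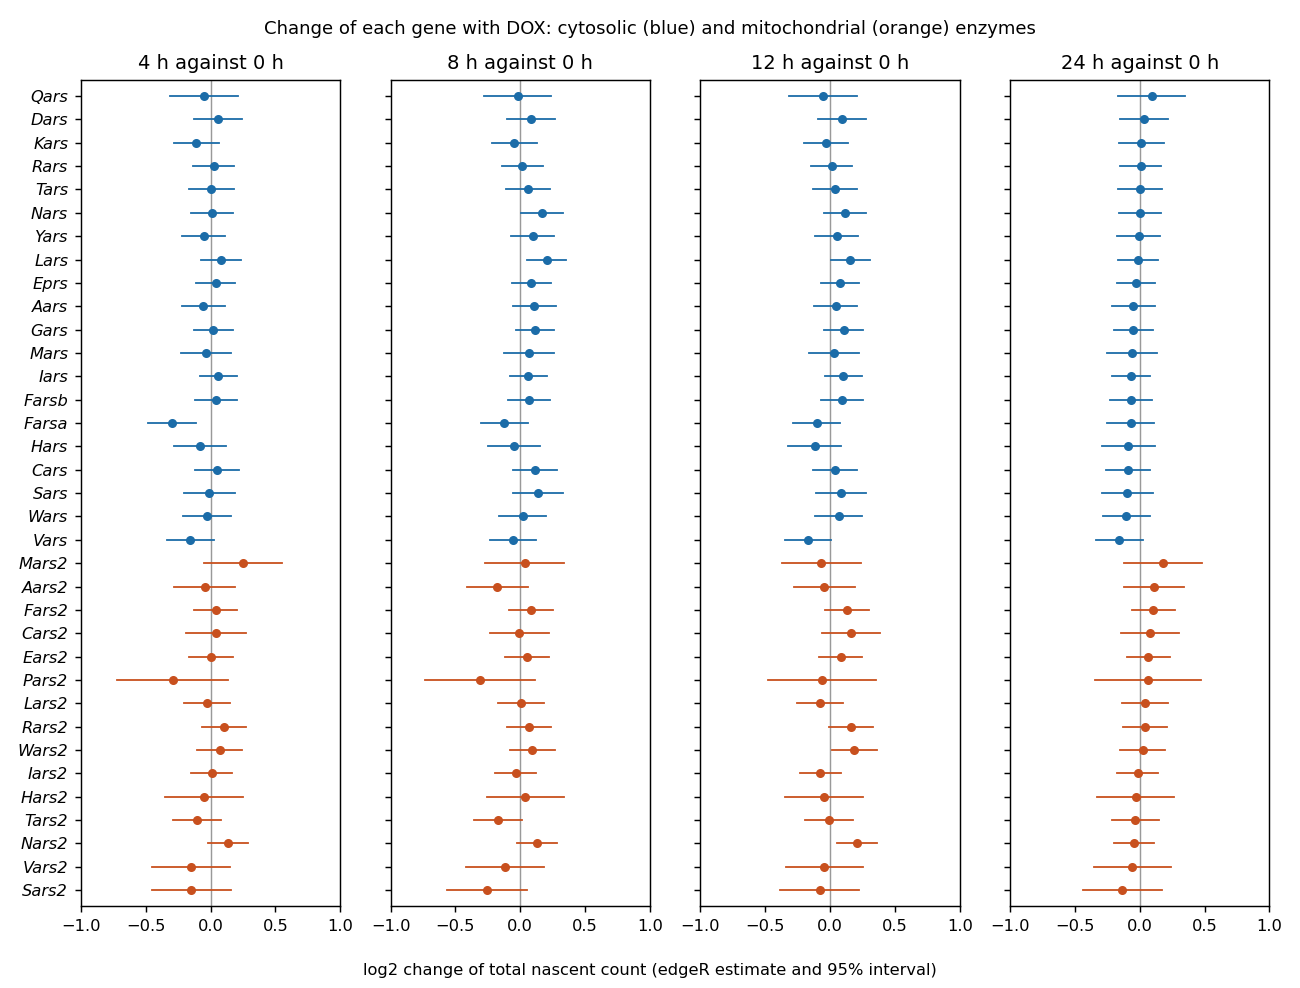
Log2 change of the total nascent count of 35 of the genes at 4, 8, 12 and 24 h against 0 h, with points for edgeR's estimates, lines for 95% intervals, blue for cytosolic and orange for mitochondrial enzymes. At 24 h every interval lies between -0.44 and 0.48, and the widest intervals at 4 and 8 h belong to Pars2.

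High estimates at 24 h included those of the mitochondrial enzymes Mars2 and Aars2, and neither passed the test. Mars2 was at 13.9 and 16.2 CPM at 0 h, 18.6 and 16.8 after 4 h, 16.4 and 13.7 after 8 h, 13.9 and 13.8 after 12 h, then 19.0 and 14.9 after 24 h. The 24 h samples lay on either side of the higher 0 h sample, and the log2 change was 0.18 (SE 0.14, edgeR adjusted p 0.753). Aars2 was at 16.3 and 14.3 CPM at 0 h, 14.9 and 14.3 after 4 h, 13.2 and 13.3 after 8 h, 14.4 and 14.2 after 12 h, then 16.8 and 15.9 after 24 h. The 0 h and 24 h samples overlapped, and the log2 change was 0.11 (SE 0.11, edgeR adjusted p 0.832). Without 0 h replicate 1 the log2 changes were 0.05 for Mars2 and 0.18 for Aars2.

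The 3 lowest estimates at 24 h belonged to Vars (valine), Sars2 (serine, mitochondrial) and Wars (tryptophan), again without a call. Vars, on chromosome 17 (35000907 to 35016329, plus strand), was at 57.3 and 49.2 CPM at 0 h, 48.0 and 46.1 after 4 h, 47.9 and 52.2 after 8 h, 45.3 and 46.0 after 12 h, then 46.8 and 47.7 after 24 h. Both 24 h samples lay below both 0 h samples, which themselves differed by more than any other pair, and the log2 change was -0.16 (SE 0.08, edgeR adjusted p 0.575). Sars2 was at 12.9 and 10.6 CPM at 0 h, 10.1 and 10.8 after 4 h, 8.78 and 10.5 after 8 h, 10.6 and 10.8 after 12 h, then 11.6 and 9.65 after 24 h. Its 0 h and 24 h samples overlapped, and the log2 change was -0.13 (SE 0.14, edgeR adjusted p 0.848). Wars was at 68.9 and 61.2 CPM at 0 h, 64.7 and 61.2 after 4 h, 64.5 and 64.2 after 8 h, 69.3 and 62.1 after 12 h, then 62.9 and 57.2 after 24 h. These samples overlapped too, and the log2 change was -0.10 (SE 0.09, edgeR adjusted p 0.774). Without 0 h replicate 1 the log2 changes were -0.07 for Vars, -0.0067 for Sars2 and -0.04 for Wars.

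Hars and Hars2 form a divergent pair on chromosome 18. Hars runs from 36783205 down to 36766528 on the minus strand and Hars2 from 36783209 to 36792560 on the plus strand, with 4 bases from start to start. Hars was at 31.2 and 33.0 CPM at 0 h, 31.1 and 28.9 after 4 h, 29.5 and 31.3 after 8 h, 29.0 and 28.1 after 12 h, then 31.5 and 28.5 after 24 h. Hars2 was at 11.2 and 10.2 CPM at 0 h, 11.2 and 9.22 after 4 h, 11.4 and 10.1 after 8 h, 9.14 and 10.8 after 12 h, then 9.77 and 10.95 after 24 h. For both genes the 0 h and 24 h samples overlapped. The log2 change at 24 h was -0.09 for Hars (SE 0.09, edgeR adjusted p 0.848) and -0.03 for Hars2 (SE 0.14, edgeR adjusted p 0.976), and without 0 h replicate 1 it was -0.15 and 0.01. Read pairs were counted by strand, so the opposite orientation keeps their counts apart.

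Nars2, Lars and Farsa were the 3 members with an unadjusted p under 0.05 for a difference among the 5 times, and were picked out after their values had been seen. This is 8.33% of the members, next to 8.45% of all genes tested (1227 of 14525), so the members were near the background and the values of these 3 genes are given as a description. Nars2, the mitochondrial asparagine enzyme, lies on chromosome 7 (96951527 to 97064757, plus strand). It was at 125 and 130 CPM at 0 h, 136 and 140 after 4 h, 136 and 137 after 8 h, 142 and 143 after 12 h, then 121 and 125 after 24 h. All 6 samples from 4 to 12 h lay above all 4 samples at 0 and 24 h. Across the 5 times its unadjusted p was 0.0175 and its edgeR adjusted p 0.397. With the replicate number as a block the edgeR adjusted p was 0.0471, so that Nars2 was then the only member called, among 889 genes called under the block against 181 without it. With the block and p-values adjusted over autosomal genes only, 0 members were called.

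Lars, the cytosolic leucine enzyme of the multisynthetase complex, lies on chromosome 18 (42202349 to 42262071, minus strand). It was at 218 and 208 CPM at 0 h, 222 and 222 after 4 h, 232 and 247 after 8 h, 234 and 224 after 12 h, then 203 and 215 after 24 h. The samples from 4 to 12 h lay above all samples at 0 and 24 h, as for Nars2, with an unadjusted p of 0.0300 and an edgeR adjusted p of 0.513 across the 5 times. Farsa, a subunit of the cytosolic phenylalanine enzyme, was at 44.2 and 42.1 CPM at 0 h, 35.4 and 34.0 after 4 h, 39.3 and 38.3 after 8 h, 36.9 and 40.7 after 12 h, then 42.8 and 38.8 after 24 h. Its 4 h samples were the lowest of the series, with a log2 change of -0.30 (SE 0.09, unadjusted p 0.0037, edgeR adjusted p 1.00). Farsb, the other subunit of that enzyme, ranged from 232 to 265 CPM and had no unadjusted p under 0.05 against 0 h.

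**Figure D3:**
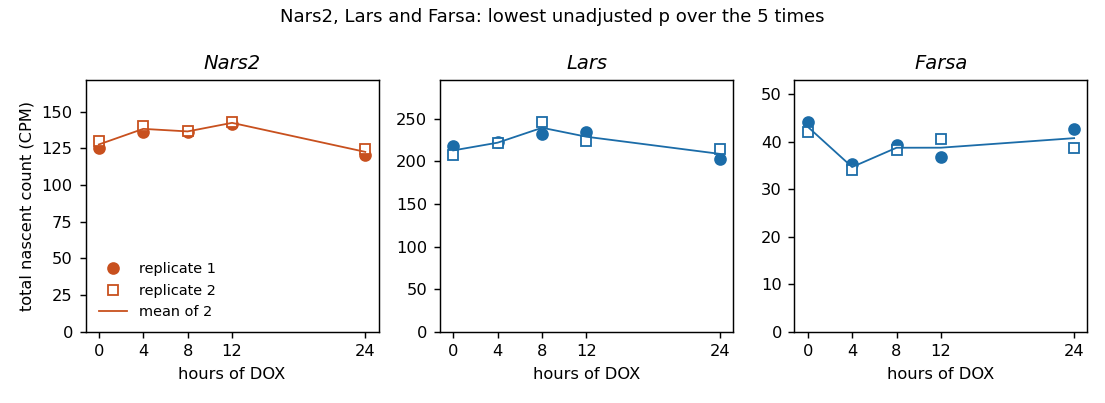
Total nascent count in CPM, from 0, against hours of DOX for Nars2, Lars and Farsa, with filled circles for replicate 1, open squares for replicate 2 and a line through the mean of 2. The Nars2 and Lars samples from 4 to 12 h lie above those at 0 and 24 h, and the Farsa samples are lowest at 4 h.

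The cytosolic and mitochondrial sets were then set beside each other over time. After 4, 8, 12 and 24 h, respectively, the 20 cytosolic genes had median log2 changes of 0.00, 0.07, 0.05 and -0.05. For the 16 mitochondrial genes the medians were 0.01, 0.02, -0.03 and 0.04. Within the cytosolic set, the 8 enzymes of the multisynthetase complex had medians of 0.03, 0.07, 0.05 and 0.00 and the other 12 enzymes medians of -0.02, 0.08, 0.05 and -0.07. Over all genes tested the median change lay between 0.00 and 0.01 at each time. Of the 20 cytosolic genes, 10, 15, 15 and 6 had an estimate above 0 at 4, 8, 12 and 24 h, against 49.2 to 52.5% of all genes tested. Of the 16 mitochondrial genes, 9, 9, 7 and 10 did. All 4 times share the same 0 h samples. Leaving out 1 sample at a time turned the sign of the cytosolic median at 4 and 12 h and of the mitochondrial median at 4, 8 and 12 h. At 24 h the cytosolic median stayed below 0 (-0.06 to -0.02) and the mitochondrial median above 0 (0.01 to 0.04), the value nearest 0 for the cytosolic set being the one without 0 h replicate 1 (-0.02).

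Summed over the set, the cytosolic genes took 2938 and 2849 CPM at 0 h, 2898 and 2868 after 4 h, 2982 and 3024 after 8 h, 2973 and 2889 after 12 h, then 2809 and 2791 after 24 h. Both 24 h samples were the lowest of the 10 and both 8 h samples the highest. The mitochondrial genes took 1092 and 1103 CPM at 0 h, 1101 and 1121 after 4 h, 1105 and 1114 after 8 h, 1140 and 1124 after 12 h, then 1132 and 1131 after 24 h. The ratio of the sums was 2.69 and 2.58 at 0 h, 2.63 and 2.56 after 4 h, 2.70 and 2.71 after 8 h, 2.61 and 2.57 after 12 h, then 2.48 and 2.47 after 24 h. It was thus lowest in both 24 h samples. Long genes weigh most in such a sum. Fars2 alone made 38.7 to 42.5% of the mitochondrial sum, and without it the ratio was 4.51 and 4.32 at 0 h and 4.22 and 4.26 at 24 h, again the lowest of the 10 samples. The median per kb, in which each gene counts alike, was 4.52 and 3.92 CPM per kb at 0 h and 3.97 and 3.97 at 24 h for the cytosolic genes, so these samples overlapped.

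**Figure D4:**
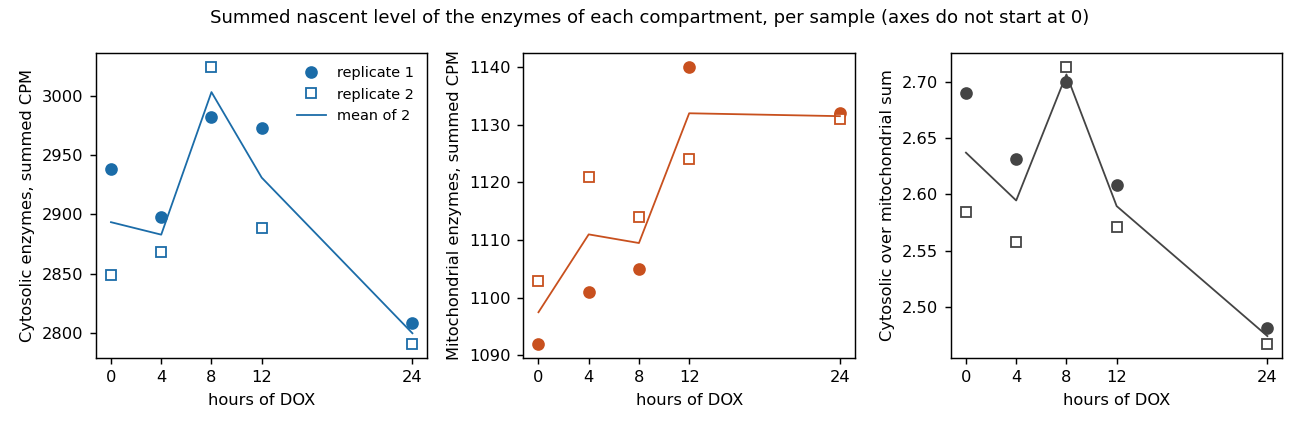
Summed CPM of the 20 cytosolic genes (left), of the 16 mitochondrial genes (middle) and the ratio of the sums (right) against hours of DOX, with filled circles for replicate 1, open squares for replicate 2 and a line through the mean of 2. The axes do not start at 0. The cytosolic sum spans 2791 to 3024 CPM and is lowest in both 24 h samples.

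Because the cytosolic sums peaked at 8 h and were lowest at 24 h, 24 h was also compared with 8 h and with 12 h, comparisons added after the data had been seen. As the members' own sums led to this choice, the shares of all genes are not a fair reference for the members here. Against 8 h, 0 of 36 members were called by edgeR, where 0.124% of all genes were called, and 7 members (19.4%) had an unadjusted p under 0.05, as had 1133 of all genes tested (7.8%). Of these Cars (cysteine), Gars, Lars, Nars, Nars2 and Sars (serine) had negative estimates and Aars2 a positive one. The median log2 change from 8 to 24 h was -0.12 for the cytosolic genes, with 3 of 20 above 0, and 0.05 for the mitochondrial genes, with 12 of 16 above 0, where 52.1% of all genes tested were above 0. Sars had the most negative estimate, from 96.2 and 90.5 CPM at 8 h to 83.0 and 77.9 at 24 h (log2 change -0.23, SE 0.09, edgeR adjusted p 0.511). Its 0 h samples, at 94.9 and 78.7 CPM, covered nearly that whole range. Against 12 h, 0 of 36 members were called and 0.00688% of all genes, with 4 members (Gars, Iars, Lars and Nars2, 11.1%) at an unadjusted p under 0.05, all with negative estimates, and 1310 of all genes (9.02%). Nars2 had the lowest p there (log2 change -0.25, SE 0.07, unadjusted p 0.00306, edgeR adjusted p 0.386), and with the replicate block it was called (edgeR adjusted p 0.0422), when the block raised the number of all genes called from 1 to 215 (1.48%).

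The 5 genes with a C/EBP-ATF response element in their window, shown above, had estimates near 0 at 24 h. Their log2 changes at that time were -0.05 for Aars, -0.05 for Gars, -0.07 for Iars, 0.00 for Tars and -0.01 for Yars, and at 8 h they ran from 0.06 to 0.11. None passed the edgeR test at either time, with adjusted p from 0.828 to 0.998 at 24 h and 0.996 for each at 8 h. Of 10 regulators and targets of the ATF4 response, Atf4 itself included, 0 passed the edgeR test at any time, with 0, 0, 0 and 1 at an unadjusted p under 0.05 at 4, 8, 12 and 24 h. At 24 h 10.3% of all genes tested were under that threshold and 1.85% were called, so these counts are a description only. Atf4 was at 59.5 to 78.2 CPM with a log2 change of 0.06 at 24 h (edgeR adjusted p 0.915). Ddit3, a stress-induced factor whose gene overlaps Mars on the opposite strand, was at 8.66 to 12.4 CPM and had a log2 change of -0.07 (edgeR adjusted p 0.932).

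Genes that work beside the synthetases were read in the same fit, from lists drawn up with the members. That fit called 0.0138% of all genes tested at 4 h and 1.85% at 24 h. A count of 0 called in lists of 3 to 12 genes is therefore a description only. Of the 3 scaffolds of the multisynthetase complex, Aimp1, Aimp2 and Eef1e1, 0 were called, and their log2 changes at 24 h ran from -0.10 to 0.12. Of 12 genes of amino acid supply 0 were called. Asns, which makes asparagine, was at 501 to 635 CPM (log2 change 0.13 at 24 h, edgeR adjusted p 0.669). Slc7a11, a cystine transporter at 2.34 to 5.47 CPM, had a log2 change of -0.74 (edgeR adjusted p 0.306), and with the replicate block its edgeR adjusted p was 0.0332. Of 8 synthetase relatives and tRNA quality genes 0 were called at any time. Dtd1, a deacylase that removes D-amino acids from tRNA, was at 24.4 to 46.9 CPM with a log2 change of -0.42 at 24 h (edgeR adjusted p 0.423), and with the block its edgeR adjusted p was 0.000703. Of 5 cytosolic elongation factors 0 were called, with log2 changes from -0.27 to -0.07 at 12 h and from -0.17 to 0.04 at 24 h. Among them Eef2, which moves the ribosome along the mRNA, had an edgeR adjusted p of 0.406 at 12 h (log2 change -0.27, SE 0.12) and of 0.0439 with the block. With the block, 4.94% of all genes tested were called at 12 h and 5.32% at 24 h. The block values of Slc7a11, Dtd1 and Eef2 are therefore given as a description only. Of 10 mitochondrial translation factors 0 were called, with log2 changes from -0.06 to 0.21 at 24 h. Of 4 genes that amidate or formylate mitochondrial tRNA, Qrsl1, Gatb, Gatc and Mtfmt, 0 were called, with log2 changes from -0.21 to 0.11 at 24 h. Mammalian mitochondria are known to make glutaminyl-tRNA by the amidation that Qrsl1, Gatb and Gatc carry out, and no Qars2 is among the members.

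Many synthetase genes start close to another gene. A partner on the other strand with a start within 1000 bases was annotated for 11 of the 36 genes (30.6%), against 13.8% of the tested autosomal genes. Among them, besides Hars with Hars2, Kars started 5 bases from Terf2ip, Rars2 16 bases from Orc3, Yars 68 from S100pbp, Wars 98 from Wdr25 and Ears2 112 from Ubfd1. Vars started 161 bases from D17H6S56E-5, Sars2 187 from Mrps12, a gene of the mitochondrial ribosome, and Fars2 286 from Lyrm4. None of these partners passed the edgeR test at 24 h. Mrps12 was at 4.24 to 7.85 CPM with a log2 change of 0.01 at 24 h, beside -0.13 for Sars2. Cars and Farsa overlap a microRNA gene on their own strand (Mir7064 and Mir7069), where read pairs of host and microRNA gene cannot be told apart.

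The second readout was the allelic share, the d-score, defined as the B6 part of all allele-assigned read pairs of a gene. Of the 36 genes, 35 had at least 10 allelic read pairs in every sample. The exception was Vars, with 3 to 11, which is 0.737% of its read pairs. The mean d-score had a median of 0.505 over the 35 genes, from 0.429 to 0.632, against a median of 0.524 over 11150 autosomal genes outside chromosome 16. All 35 lay between the 10th and 90th percentiles of those genes (0.419 and 0.647). Of the 35, 12 had a mean d-score above the median of their own chromosome. The median was 0.505 for the 19 cytosolic and 0.498 for the 16 mitochondrial genes.

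Tested against an equal share with edgeR over all 10 samples, 20 of the 35 genes were unequal (57.1%), while 74.7% of the 11906 genes tested were. B6 was higher for 13 of them and Cast for 7, against 49.2% of all genes tested with B6 higher and 25.5% with Cast higher. B6 thus made 65.0% of the members' unequal calls and 65.9% of those over all genes. Of the 19 cytosolic genes 9 had B6 higher and 2 Cast higher, and of the 16 mitochondrial genes 4 and 5. This split depended on the scaling. With TMM factors over the 20 allelic columns, which moved the median log2 ratio of all genes from 0.12 to 0.00, 28 members were unequal, 12 with B6 and 16 with Cast higher (42.9% with B6). That is 80.0% of the 35 members against 71.1% of all genes tested, so the members' share lay below that of all genes under one scaling and above it under the other. The 8 members gained were Aars, Dars, Ears2, Farsa, Kars, Tars, Wars and Yars. Farsb turned from B6 higher (log2 ratio 0.05, edgeR adjusted p 0.0179) to Cast higher (-0.07, edgeR adjusted p 0.000408). Of the 20 unequal genes, 17 were also called by DESeq2, the 3 others being Farsb, Iars2 and Rars2.

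The highest shares of B6 were those of Pars2, Lars2 and Mars. Pars2, the mitochondrial proline enzyme on chromosome 4, had d-scores of 0.682 and 0.626 at 0 h, 0.691 and 0.508 after 4 h, 0.641 and 0.667 after 8 h, 0.658 and 0.701 after 12 h, then 0.618 and 0.527 after 24 h. These rest on 59 to 110 allelic read pairs per sample, and all 10 lay above 0.5 (mean 0.632 ± 0.0659, SD over 10 samples). The log2 ratio of B6 to Cast was 0.81 (SE 0.11, edgeR adjusted p 5.52e-11). Lars2 had d-scores of 0.609 and 0.572 at 0 h, 0.590 and 0.585 after 4 h, 0.623 and 0.614 after 8 h, 0.586 and 0.622 after 12 h, then 0.590 and 0.570 after 24 h. With 900 to 1180 allelic read pairs per sample it varied less, and its log2 ratio was 0.56 (SE 0.03, edgeR adjusted p 1.09e-33). Mars had d-scores of 0.574 and 0.637 at 0 h, 0.546 and 0.566 after 4 h, 0.6003 and 0.577 after 8 h, 0.562 and 0.580 after 12 h, then 0.578 and 0.615 after 24 h, with a log2 ratio of 0.49 (SE 0.04, edgeR adjusted p 4.72e-22).

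The lowest shares were those of Wars2, Fars2 and Mars2, all mitochondrial. Wars2, on chromosome 3, had d-scores of 0.390 and 0.417 at 0 h, 0.437 and 0.429 after 4 h, 0.453 and 0.447 after 8 h, 0.398 and 0.439 after 12 h, then 0.434 and 0.442 after 24 h. All 10 lay below 0.5, with a log2 ratio of -0.41 (SE 0.04, edgeR adjusted p 4.07e-18). Fars2 had d-scores of 0.424 and 0.429 at 0 h, 0.442 and 0.432 after 4 h, 0.423 and 0.432 after 8 h, 0.428 and 0.428 after 12 h, then 0.432 and 0.421 after 24 h. At 4656 to 6137 allelic read pairs per sample its SD over the 10 samples was 0.0058, the smallest of the 35, and the log2 ratio was -0.41 (SE 0.02, edgeR adjusted p 2.09e-51). Mars2 had d-scores of 0.412 and 0.462 at 0 h, 0.410 and 0.414 after 4 h, 0.455 and 0.475 after 8 h, 0.382 and 0.438 after 12 h, then 0.352 and 0.565 after 24 h. Only 80 to 125 allelic read pairs per sample stood behind them, the 24 h replicates lay on either side of 0.5, and the log2 ratio was -0.39 (SE 0.10, edgeR adjusted p 0.000268). Under the TMM scaling these 6 genes kept the sign of their ratio, at 0.68, 0.44, 0.36, -0.54, -0.54 and -0.51, and their calls. Mars and Mars2 thus differed in direction, with more B6 reads for the cytosolic and more Cast reads for the mitochondrial methionine enzyme.

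**Figure D5:**
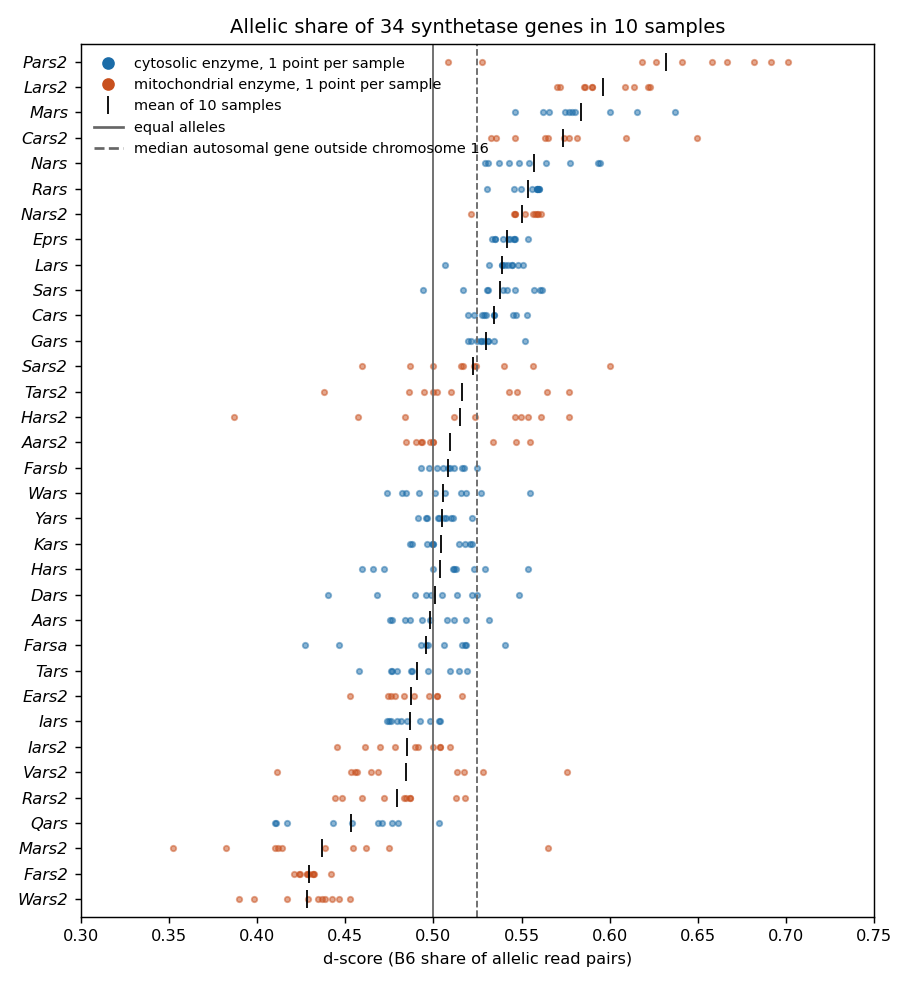
d-score of 34 synthetase genes, ordered by their mean (black tick), with 1 point for each of the 10 samples, blue for cytosolic and orange for mitochondrial enzymes. The solid line marks equal alleles (0.5) and the dashed line the median autosomal gene outside chromosome 16 (0.524). The means run from 0.429 (Wars2) to 0.632 (Pars2), and genes with few allelic read pairs such as Pars2 (59 to 110) and Mars2 (80 to 125) scatter most.

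Whether the share moved with DOX was asked for each time against 0 h in the same model. Of the 35 members 0 changed their B6 share at 4 h, where 0.361% of all genes tested did, 0 at 8 h (1.66% of all genes), 0 at 12 h (2.15%) and 0 at 24 h (2.64%). The lowest edgeR adjusted p among members was 0.969, 0.723, 0.462 and 0.558 at the 4 times, and 2, 4, 3 and 2 members had an unadjusted p under 0.05. The counts of members at that threshold and of lower shares here have no share of all genes beside them and are a description only. DESeq2 also called 0 members at each time. Without 0 h replicate 1, 0 of 35 were called at each time, with 1 member at an unadjusted p under 0.05 at each. The members' median d-score was 0.515 before DOX and 0.522, 0.508, 0.507 and 0.504 after 4, 8, 12 and 24 h. At 24 h 19 of the 35 had a lower B6 share than at 0 h, and the 95% intervals reached a median of 0.25 to either side on the log2 ratio scale. The 2 members with an unadjusted p under 0.05 at 24 h were Iars2, from a mean d-score of 0.497 at 0 h to 0.462 (edgeR adjusted p 0.558), and Tars, from 0.503 to 0.472 (edgeR adjusted p 0.602). The lowest adjusted p at any time was that of Iars at 12 h, from 0.474 to 0.498 (log2 change of the ratio 0.14, SE 0.06, edgeR adjusted p 0.462).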

How the data were processed

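TT-seq libraries of newly made RNA from 10 samples were analysed from the tables that the authors deposited, 1 per sample. Per the study's methods, trimmed read pairs (Cutadapt) were aligned with STAR to mm10 masked at B6 and Cast polymorphisms (at most 2% mismatches, MAPQ 7 or more), split by allele with SNPSplit and counted by strand with featureCounts 1.5.1 over the full span of each refFlat gene. The submitters' processing notes name TopHat2 2.1.0 instead of STAR. The deposited values are raw counts of read pairs per gene, in total and per allele, and the B6 fraction (d-score, for at least 10 allelic read pairs), which was recomputed here from the deposited counts. Depth was 18809046 to 22274929 counts per sample, and spreads between replicates cover more than counting error.

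Total counts were tested in edgeR 4.0.16 (filterByExpr, TMM, quasi-likelihood test, time as a factor, all 10 samples, Benjamini-Hochberg over all 14525 genes tested). Allelic counts were tested in the same way on 20 columns, with a term per sample, the same library size for both alleles and at least 10 allelic read pairs in every sample. Scripts were tested on simulated data with known changes. The titles give replicate numbers and the study speaks of biological duplicates. No label says what a number shares across times, so p-values measure the spread between these samples. Same-numbered samples deviated together in total counts at all 10 pairs of times (r 0.132 to 0.253), so a fit with the replicate as a block is given where it changes a call. Alternatives were DESeq2 1.42.0, limma-voom 3.58.1, other size factors, no filter, reads of 1 allele, a block, and each sample left out. GENCODE M21 placed all 36 members as protein coding, and RefSeq (GRCm38.p6) gave promoters. Members and gene lists were chosen with earlier results of these data known. Values in every sample are given for the 3 highest and lowest log2 changes at 24 h, the 3 highest and lowest d-scores, Hars and Hars2, and ranges for the 3 highest and lowest levels per kb of each set. The values of 1 member are not reported here and are left out of the plots of single genes, while counts and sums over the members include it.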

Additional observations from a re-analysis of the deposited data

How the results depend on the processing

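The count of 0 called members at 4, 8, 12 and 24 h held in edgeR, DESeq2 and limma-voom, without a filter, with DESeq2's size factors, with reads of either allele alone, with a replicate block and without each sample in turn. The test over the 5 times called 1 member with the block (Nars2), as did 24 h against 12 h (1, Nars2), and otherwise 0. For the allelic ratio the numbers did not pair the samples (r 0.0004 to 0.0324), and the block left 20 unequal members. Leaving out 1 sample at a time gave 18 to 21 unequal members, and DESeq2 17. Over all genes the block raised the number called from 2, 28, 138 and 269 to 5, 108, 718 and 773 at 4, 8, 12 and 24 h, from 181 to 889 over the 5 times, from 18 to 301 for 24 h against 8 h and from 1 to 215 for 24 h against 12 h.

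Without each sample in turn, the median log2 change of the cytosolic genes ran from -0.0334 to 0.0268 at 4 h, from 0.037 to 0.0896 at 8 h, from -0.0026 to 0.0928 at 12 h and from -0.0573 to -0.0193 at 24 h. That of the mitochondrial genes ran from -0.0196 to 0.0179 at 4 h, from -0.0382 to 0.017 at 8 h, from -0.0359 to 0.0587 at 12 h and from 0.0099 to 0.042 at 24 h. The sign of the 24 h change turned for Mars2 (-0.0155) with Cast read pairs only and for Wars (0.032) and Hars2 (0.0109) with B6 read pairs only. For Hars2 it also turned without 0 h replicate 1 (0.013) and without 24 h replicate 1 (0.0487), in a range of -0.1334 to 0.0487 over samples left out. The cause was not tested. Depth limits the allelic values of Pars2 and Mars2, with 59 to 110 and 80 to 125 allelic read pairs per sample, and Vars has too few for a d-score.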
